A study of Mus musculus with 14 samples.

Results

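A set of 41 genes of cell division and DNA replication was followed in RNA from the mouse left ventricle. They were taken by name from a table of 24054 genes, and all 41 were found. They comprise 3 D cyclins (Ccnd1, Ccnd2, Ccnd3), 3 genes of the switch into S phase (Ccne1, Ccne2, E2f1), 11 genes of DNA replication and nucleotide supply (Mcm2 to Mcm7, Pcna, Rrm1, Rrm2, Tyms, Tk1) and 24 genes of mitosis (such as Mki67, Top2a, Cdk1, Ccna2 and Cenpf). The study sequenced poly(A) RNA from 14 left ventricles of C56Bl6 mice. The 5 control libraries were made from animals kept on control diet for 10 weeks. The 4 HFpEF-scr and 5 HFpEF-FoxO1-sh libraries came from mice given a High-Fat diet with L-NAME, an inhibitor of nitric oxide synthase, for 6 weeks, together with an adeno-associated virus (AAV) for 4 weeks. That virus carried a scrambled short hairpin RNA in HFpEF-scr and a hairpin against FoxO1 in HFpEF-FoxO1-sh. HFpEF stands for heart failure with preserved ejection fraction. No virus is named for the controls, and their diet lasted 10 weeks rather than 6. Diet, its length, L-NAME and virus therefore cannot be told apart in a comparison with them. The promoter of the hairpin and the cells the virus entered are not given in the sources used here. The labels number the samples but do not say that each came from a separate animal, so p-values measure the spread between these samples.

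In a dividing cell, D cyclins with Cdk4 or Cdk6 release E2F factors from the retinoblastoma proteins. E2F factors and cyclin E then open S phase, in which the MCM helicase unwinds DNA, the Pcna clamp holds the polymerases, and ribonucleotide reductase (Rrm1, Rrm2), thymidylate synthase (Tyms) and thymidine kinase (Tk1) supply nucleotides. Cyclin A, cyclin B and Cdk1 drive mitosis, in which kinesins, Aurora and Polo kinases and kinetochore proteins move the chromosomes. Adult cardiomyocytes rarely divide, so most mitotic messages in an adult ventricle are usually attributed to other cells, while D cyclins and Pcna are also expressed in cells that do not divide.

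Promoters of cell-division genes often hold an NF-Y box (CCAAT), a cell cycle homology region (CHR, searched as TTTGAA or TTCGAA) or an E2F element (searched as TTCGCGC or TTGGCGC), which bring in NF-Y, the DREAM and MuvB complexes, and E2F factors. The 6 stretches upstream of the transcription start shown here belong to members that differ in their pattern below: the mitotic genes Mki67, Top2a, Cdk1 and Kif11, the mitotic gene Cenpf, whose level did not follow theirs, and the helicase gene Mcm5. The sequences come from RefSeq on GRCm38.p6 and are written 5′ to 3′ on the strand of the gene. Capitals mark matches to these motifs on either strand.
Mki67: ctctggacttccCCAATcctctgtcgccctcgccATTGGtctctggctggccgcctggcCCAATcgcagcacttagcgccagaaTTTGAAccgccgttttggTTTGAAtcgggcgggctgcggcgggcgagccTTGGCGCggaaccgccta
Top2a: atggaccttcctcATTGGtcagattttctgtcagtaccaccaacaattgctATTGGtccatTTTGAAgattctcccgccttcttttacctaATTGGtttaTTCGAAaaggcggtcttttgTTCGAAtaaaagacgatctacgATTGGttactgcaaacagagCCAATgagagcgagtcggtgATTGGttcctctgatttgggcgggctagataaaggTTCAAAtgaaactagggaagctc
Cdk1: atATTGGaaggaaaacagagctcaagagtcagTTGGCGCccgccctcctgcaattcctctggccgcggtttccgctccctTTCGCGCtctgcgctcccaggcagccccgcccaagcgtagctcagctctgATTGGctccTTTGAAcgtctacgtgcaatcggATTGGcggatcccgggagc
Kif11: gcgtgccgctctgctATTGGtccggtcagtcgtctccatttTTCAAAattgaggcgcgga
Cenpf: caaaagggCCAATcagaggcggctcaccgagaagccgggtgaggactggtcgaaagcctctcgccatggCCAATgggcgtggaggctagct
Mcm5: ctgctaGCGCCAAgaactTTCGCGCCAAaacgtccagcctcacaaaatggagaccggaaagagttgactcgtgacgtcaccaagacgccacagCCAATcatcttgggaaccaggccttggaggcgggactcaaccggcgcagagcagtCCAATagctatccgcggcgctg
The Mki67 stretch lies at chr7:135716429-135716579 on the minus strand, bases -200 to -50 from the start. Top2a is shown at chr11:99024190-99024429 (minus strand, -240 to -1) and Cdk1 at chr10:69352942-69353122 (minus strand, -210 to -30). Kif11 is shown at chr19:37376322-37376381 (plus strand, -60 to -1), Cenpf at chr1:189688136-189688226 (minus strand, -140 to -50) and Mcm5 at chr8:75109339-75109508 (plus strand, -170 to -1).

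A promoter window was found for 33 of the 41 members, giving 36 windows of 250 bases upstream of the start, since 3 members had more than 1. No window was found for Ccnd1, Ccnd2, Ccne2, Ccna2, Aurkb, Kif20a, Tpx2 or Mcm4, so they were not searched for any motif. The NF-Y box was found in 18 of 21 mitotic windows (85.7%) and 9 of 11 S-phase windows (81.8%), against 33.8% of all 32851 mouse windows of that length. A CHR was found in 42.9% of the mitotic windows and 18.2% of the S-phase windows, against 17.1% of all windows. The E2F letters were found in 14.3% and 18.2% of these windows, against 3.14% of all. Matches of the NF-Y box and the E2F element overlapped in 1 member window, that of Ccnb1. The FoxO motif searched (TGTTTAC, either strand) was present in 1 of the 36 member windows, that of Ccnd3, and in 3.17% of all windows. These matches describe the letters in the window, and no binding was measured.

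Library totals ran from 13174118 to 21247155 expected counts. Levels are given as counts per 1000000 (CPM) on library sizes scaled by the trimmed mean of M-values (TMM). The mitotic members were scarce: in controls their mean levels ran from 0.431 CPM (Ccnb1) to 51.6 CPM (Cenpf), with a median of 1.75 CPM. The S-phase members had a median of 10.4 CPM, from 1.93 CPM (Tk1) to 28.0 CPM (Pcna), and the D cyclins lay between 51.4 CPM (Ccnd3) and 214 CPM (Ccnd2). Divided by exon length, the control order was Ccnd2 at 22.7 ± 2.81 CPM per kb and Ccnd1 at 22.3 ± 3.50 (SD, n = 5), which did not differ beyond their spread, then Pcna at 11.7 ± 0.761 and Ccnd3 at 5.86 ± 0.532 (SD, n = 5). Cenpf was the highest mitotic gene per length at 3.34 ± 1.12 CPM per kb, above Mki67 at 1.07 ± 0.381, and Ccnb1 was the lowest of all 41 at 0.102 ± 0.0859 (SD, n = 5).

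**Figure D1:**
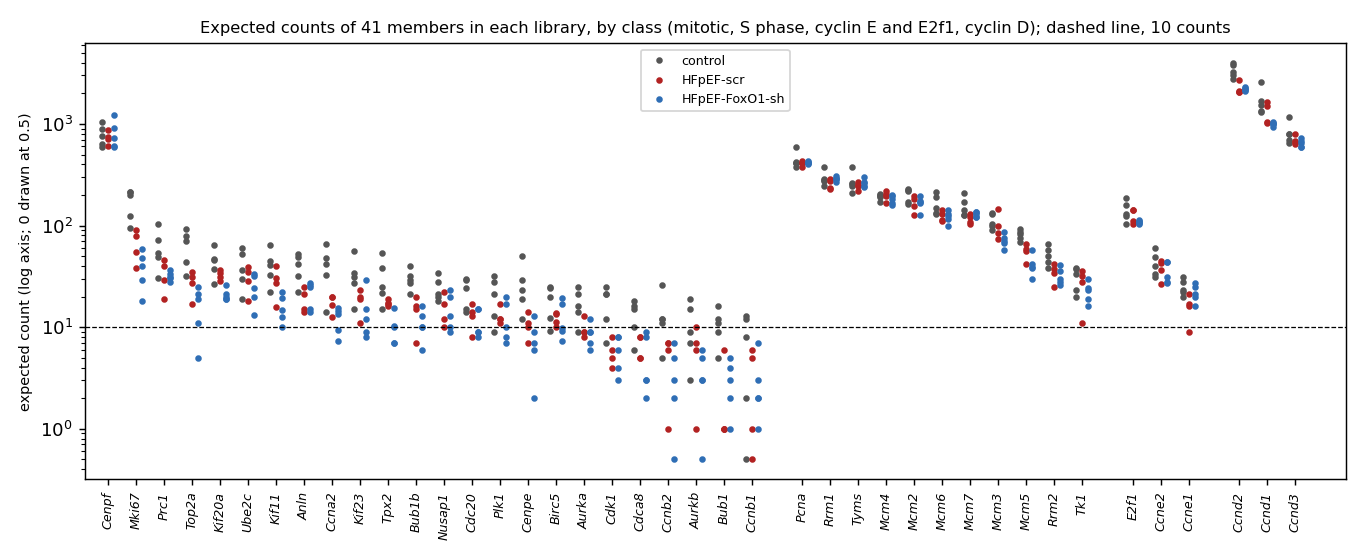
Expected counts (log axis, with 0 drawn at 0.5) of the 41 members, 1 dot per library, for control (grey), HFpEF-scr (red) and HFpEF-FoxO1-sh (blue). The dashed line marks 10 counts, which 23 members reached in every library, and most mitotic members lie close to it.

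Counting error bears most on the mitotic genes. In any 1 library, 0 to 13 members had fewer than 10 counts. The 4 mitotic members Ccnb1, Ccnb2, Bub1 and Cdca8 had too few counts to be tested, which left 37. Ccnb1 had 0 counts in control 5 and HFpEF-scr 2, Ccnb2 in HFpEF-FoxO1-sh 3 and Aurkb in HFpEF-FoxO1-sh 2. A count of 0 allows up to 3 counts, which is 0.208 CPM in HFpEF-scr 2, 0.207 CPM in HFpEF-FoxO1-sh 3 and 0.224 CPM in HFpEF-FoxO1-sh 2. Cdk1 passed the count filter through the controls alone, since it exceeded the filter level of 0.68 CPM in 4 controls and in no HFpEF library, so its place among the tested genes is not independent of its difference. Aurka passed almost in that way, with at most 1 library over that level in each HFpEF group. Aurkb passed through 3 controls and 1 HFpEF-scr library, with 0 in HFpEF-FoxO1-sh. The counts of called members below that hold Cdk1 are likewise not independent of its level in controls. For that reason the direction of the members is also given below over all 41 without a filter.

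In the HFpEF-scr ventricles, 5 of the 37 tested members were lower than in controls and none was higher, by edgeR's quasi-likelihood test at a Benjamini-Hochberg adjusted p under 0.05 over all 13588 genes tested. Of all genes tested, 7.37% were called in either direction and 3.70% were called lower, against 3.66% called higher. The 5 were the mitotic genes Mki67, Cdk1, Ccna2 and Anln and the D cyclin Ccnd2. By class that is 4 of 20 tested mitotic genes, 1 of 3 D cyclins, 0 of 11 S-phase genes and 0 of the 3 genes Ccne1, Ccne2 and E2f1. At an unadjusted p under 0.05 there were 15 members (23.6% of all genes), 3 of them in S phase and 0 among Ccne1, Ccne2 and E2f1. Without a filter, 38 of 41 members and 24 of 24 mitotic members had a log2 difference below 0, against 48.1% of all genes. The median log2 difference was -0.71 over the mitotic members, -0.08 over the S-phase members and 0 over all genes. The count of 5 depended on single libraries: it was 1 without HFpEF-scr 2 or without HFpEF-scr 4, 2 without control 1, 2 or 3, and 8 without control 4 or without HFpEF-scr 1.

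In the libraries labelled HFpEF-FoxO1-sh, 13 of 37 tested members were lower than in controls and none was higher (edgeR, adjusted p under 0.05). The background here was larger, with 13.0% of all genes called in either direction 6.28% called lower and 6.68% called higher. At an unadjusted p under 0.05 there were 22 members (27.0% of all genes), 4 of them in S phase and 0 among Ccne1, Ccne2 and E2f1. Of the 20 tested mitotic genes, 10 were lower: Mki67, Top2a, Cdk1, Ccna2, Bub1b, Kif11, Kif20a, Cenpe, Tpx2 and Prc1. The others were Mcm5 among 11 S-phase genes and Ccnd1 and Ccnd2 among the 3 D cyclins. Without a filter, 36 of 41 members and 23 of 24 mitotic members lay below 0, against 50.0% of all genes, and the medians were -1.12 for mitosis and -0.15 for S phase. Between 11 and 17 members were called when any 1 library was left out.

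Between HFpEF-FoxO1-sh and HFpEF-scr, 0 of 37 members were called by edgeR, where 3.58% of all genes were (2.26% lower and 1.32% higher). DESeq2 and limma voom also called 0. In edgeR, 7 members had an unadjusted p under 0.05 (19.7% of all genes), 9 in DESeq2 and 6 in limma voom. The 7 in edgeR were Kif20a, Kif11, Tpx2, Mki67, Ccnd1 and Mcm3, with lower means under the FoxO1 hairpin, and Rrm1, with a higher mean. The groups did not overlap for 2 members, Kif20a and Tpx2, and 4.23% of all genes had their groups wholly in that order. Without a filter, the background below 0 was 49.5% of all genes, and 28 of 41 members lay there. Both HFpEF groups were compared with the same 5 controls, so those 2 comparisons are not independent, and their counts of 5 and 13 do not show that the 2 HFpEF groups differ.

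**Figure D2:**
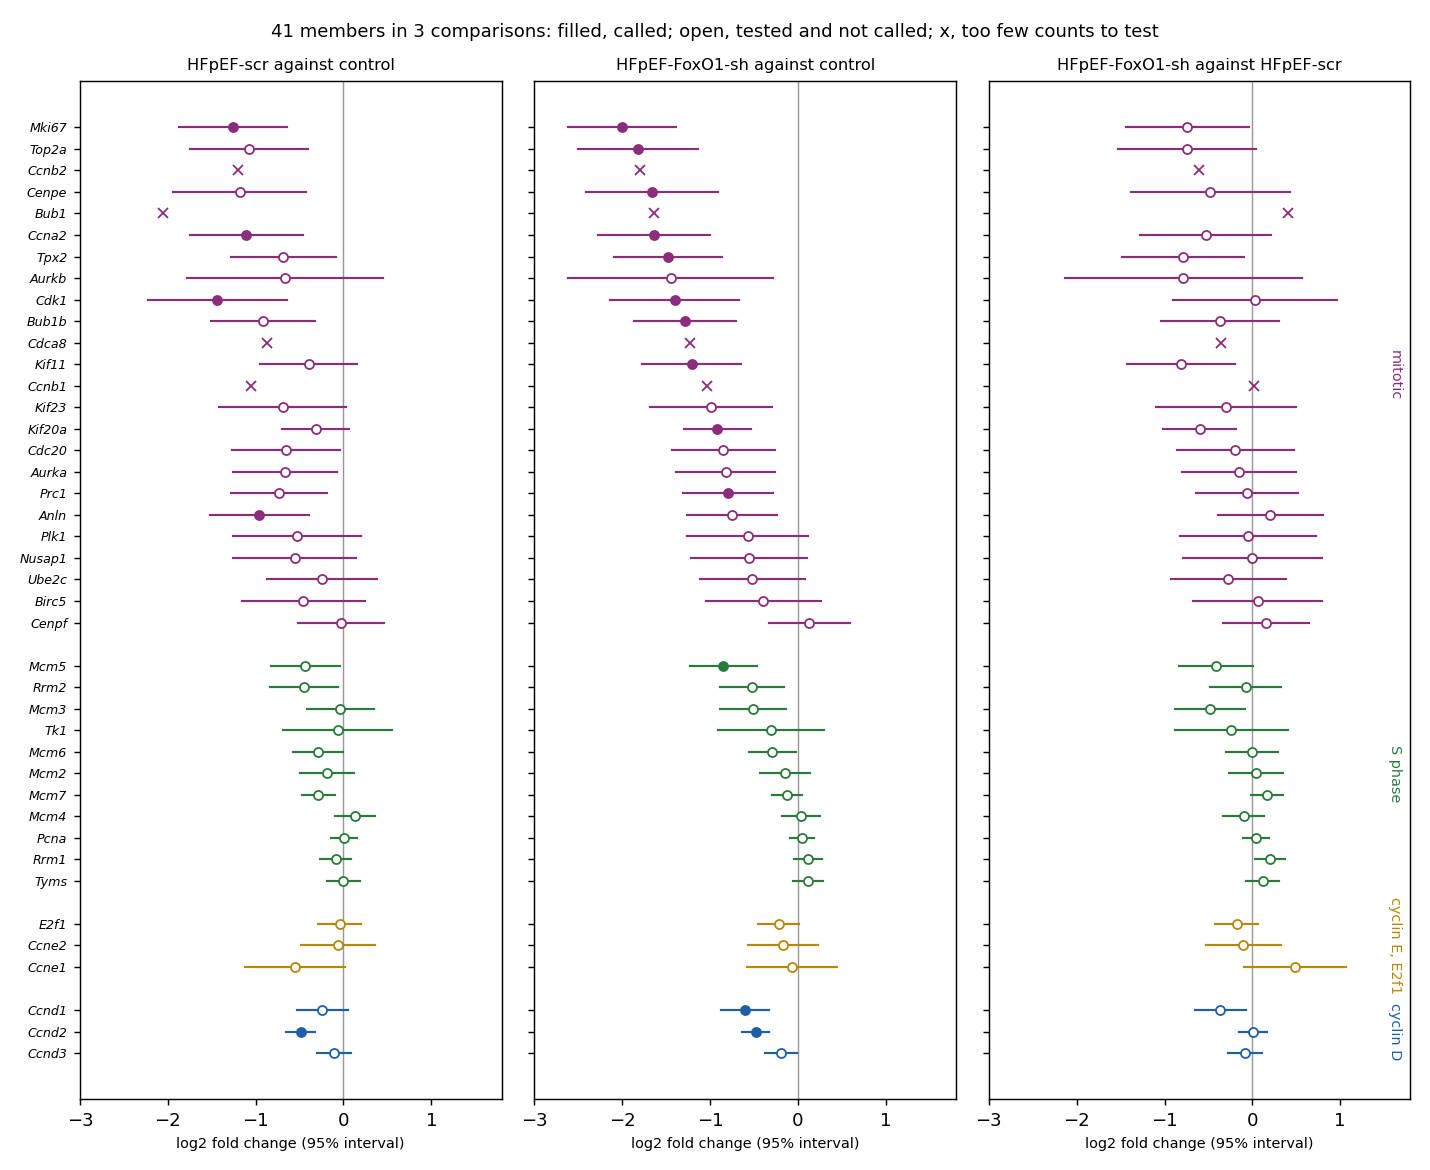
Log2 fold change of each of the 41 members (rows, grouped and coloured by class) with its 95% interval in the 3 comparisons (panels). Filled dots passed the adjusted p of 0.05, open dots did not, and crosses mark 4 members with too few counts to test, drawn from the fit without a filter. The mitotic rows lie mostly left of 0 in the 2 panels against control, with Cenpf at the bottom of its class near 0, while several S-phase rows lie near 0.

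Summed over a class, the mitotic level without Cenpf was 54.3, 67.3, 57.4, 31.9 and 37.3 CPM in controls 1 to 5. It was 31.6, 19.9, 32.8 and 26.4 CPM in the 4 HFpEF-scr libraries and 20.6, 18.5, 19.1, 27.9 and 20.3 CPM in the 5 HFpEF-FoxO1-sh libraries. Controls 4 and 5 were the lowest controls, and HFpEF-scr 3 lay above control 4, so the control and HFpEF-scr ranges met there, while every HFpEF-FoxO1-sh library was below every control. The means were 49.6 ± 14.7 (SD, n = 5), 27.7 ± 5.90 (SD, n = 4) and 21.3 ± 3.79 (SD, n = 5) CPM, differences from control of -44.2% and -57.1%. Leaving out Cenpf, the mitotic member whose level did not follow the others, is not independent of its values. With Cenpf in the sum, which alone held 51.6 CPM in controls, the differences were -22.8% and -23.5%. That full sum overlapped between the groups, at 80.7 to 134 CPM in controls, 62.3 to 88.2 in HFpEF-scr and 63.0 to 101.6 in HFpEF-FoxO1-sh. In whole tissue, fewer dividing cells and less RNA per cell cannot be told apart.

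The S-phase sum was 126 ± 13.0 CPM in controls (SD, n = 5), 118 ± 9.47 in HFpEF-scr (SD, n = 4) and 120.4 ± 4.13 in HFpEF-FoxO1-sh (SD, n = 5), differences of -6.07% and -4.60% that are smaller than the spread between controls. Unlike the mitotic sum without Cenpf, the S-phase sum leaves out no member. In controls Pcna, Rrm1, Tyms and Mcm4 held 28.0, 18.6, 16.9 and 12.3 CPM of it. Ccne1, Ccne2 and E2f1 together stood at 13.1 ± 1.63, 12.2 ± 2.09 and 11.5 ± 0.832 CPM, also within the spread. The D cyclins together stood at 369.9 ± 32.6, 289 ± 31.4 and 267 ± 12.0 CPM, differences of -21.9% and -27.8%. HFpEF-scr 1, the highest of its group, reached 320.9 CPM, just under the lowest control, control 4, at 321 CPM, and the highest HFpEF-FoxO1-sh library reached 284 CPM. No test was run on these sums.

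**Figure D3:**
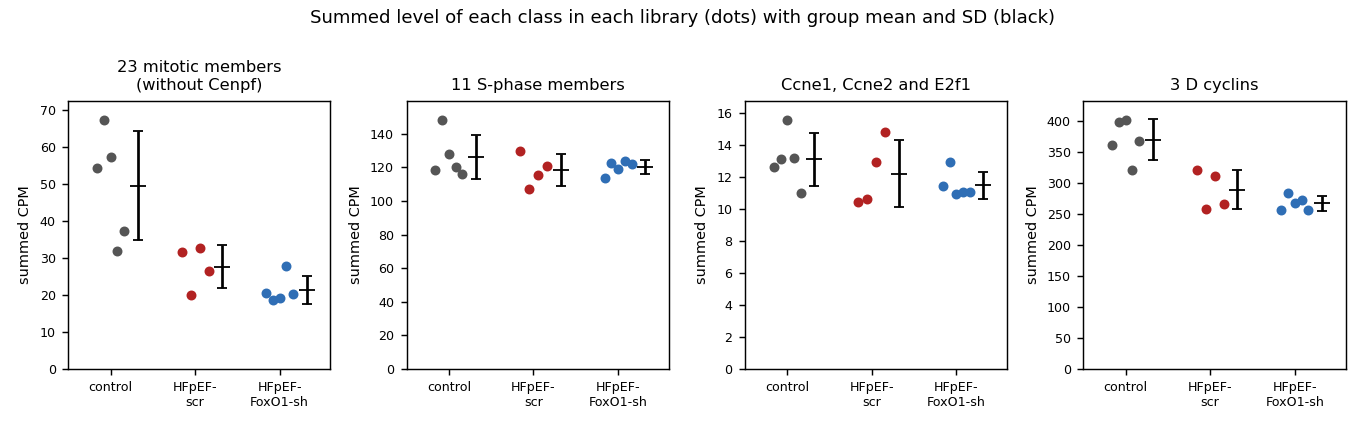
Summed CPM of the 23 mitotic members without Cenpf, the 11 S-phase members, the 3 genes Ccne1, Ccne2 and E2f1, and the 3 D cyclins (panels, each from 0), 1 dot per library, with the group mean and SD in black. The mitotic means run 49.6, 27.7 and 21.3 CPM, while the S-phase means, with no member left out, stay between 118 and 126 CPM. With Cenpf in the sum, the mitotic means run 101, 78.2 and 77.5 CPM.

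Among the D cyclins, the activators of Cdk4 and Cdk6, Ccnd2 had the smallest adjusted p of all members in HFpEF-scr. Its level in controls 1 to 5 was 186, 223, 249, 188 and 221 CPM. In HFpEF-scr it was 148, 144, 172 and 145 CPM, and in HFpEF-FoxO1-sh 150.2, 159, 152, 148 and 154 CPM. Every control lay above every HFpEF library of either group. That order, with the groups not overlapping, was found for 4 members in HFpEF-scr (4.64% of all genes tested) and 9 in HFpEF-FoxO1-sh (5.53%). The 9 include Bub1, which had too few counts to be tested, while the shares cover tested genes only. Ccnd2 fell by 0.49 ± 0.08 (SE) on the log2 scale in HFpEF-scr (adjusted p = 0.00162, edgeR) and by 0.48 ± 0.07 in HFpEF-FoxO1-sh (adjusted p = 0.000449, edgeR). Between the HFpEF groups the difference was 0.01 ± 0.08, with a 95% interval from -10.3% to 12.4%. Both calls held whichever library was left out. On mm10, Ccnd2 lies on chromosome 6 from 127125162 to 127152193, and 7.86% of its exon bases are shared with antisense genes.

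Ccnd1 had 121, 124, 99.9, 89.1 and 91.2 CPM in controls, 117, 70.2, 95.8 and 73.4 CPM in HFpEF-scr and 66.1, 76.9, 68.2, 72.9 and 61.7 CPM in HFpEF-FoxO1-sh. HFpEF-scr overlapped the controls and reached below them, whereas all 5 HFpEF-FoxO1-sh libraries were below all controls. Ccnd1 fell by 0.60 ± 0.13 on the log2 scale in HFpEF-FoxO1-sh against control (adjusted p = 0.00596, edgeR). The difference in HFpEF-scr was -0.24 ± 0.14 (adjusted p = 0.306), and that between the HFpEF groups was -0.37 ± 0.14 (adjusted p = 0.136, 95% interval -36.4% to -5.26%), so the 2 HFpEF groups were not separated for Ccnd1 after adjustment. Of its exon bases, 23.4% are shared with a neighbouring gene. Ccnd3 was not called: its means were 51.4 ± 4.66, 47.8 ± 5.87 and 45.1 ± 5.14 CPM and its groups overlapped.

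E2f1, a transcription factor that switches on S-phase genes, had 8.81, 9.2, 10.3, 8.62 and 7.09 CPM in controls, 7.18, 7.69, 9.16 and 10.1 CPM in HFpEF-scr and 7.5, 8.14, 7.38, 7.32 and 7.47 CPM in HFpEF-FoxO1-sh. The 3 groups overlapped, with log2 differences from control of -0.04 ± 0.11 (adjusted p = 0.856) and -0.22 ± 0.11 (adjusted p = 0.204, edgeR). The E cyclins, partners of Cdk2, were scarcer. Ccne1 differed from control by -0.55 ± 0.27 in HFpEF-scr and by -0.07 ± 0.24 in HFpEF-FoxO1-sh, and Ccne2 by -0.06 ± 0.20 and -0.17 ± 0.19, none of them called. The Ccne1 intervals, -54.1% to 1.48% and -33.2% to 36.1%, leave room for changes in either direction.

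Several S-phase members stayed near their control level. Pcna, the sliding clamp, had 28.0, 30.6, 27.3, 25.6 and 28.4 CPM in controls, 29.1, 26.0, 26.5 and 30.9 CPM in HFpEF-scr and 27.5, 32.1, 28.4, 29.8 and 26.9 CPM in HFpEF-FoxO1-sh. Its groups overlapped throughout, and its 95% intervals against control were -9.31% to 11.2% and -6.17% to 13.7%. Tyms was not called either, with intervals of -12.2% to 13.6% and -4.03% to 22.2%. Rrm1 (log2 differences of -0.09 and 0.11) and Mcm4 (0.13 and 0.04) were likewise close to their control level.

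Mcm5, a subunit of the replicative helicase, was the 1 S-phase member called by edgeR. It had 4.03, 6.90, 5.35, 5.05 and 4.70 CPM in controls, 4.57, 2.91, 3.65 and 4.18 CPM in HFpEF-scr and 2.52, 2.91, 2.07, 2.96 and 3.87 CPM in HFpEF-FoxO1-sh. HFpEF-scr overlapped the controls, and HFpEF-FoxO1-sh lay wholly below them. Mcm5 fell by 0.85 ± 0.18 on the log2 scale in HFpEF-FoxO1-sh (adjusted p = 0.00588, edgeR) and differed by -0.43 ± 0.18 in HFpEF-scr (adjusted p = 0.167). Another 2 S-phase genes came near the threshold in HFpEF-FoxO1-sh against control: Rrm2, the regulated subunit of ribonucleotide reductase, at -0.52 ± 0.17 (adjusted p = 0.0562), and the helicase subunit Mcm3 at -0.51 ± 0.18 (adjusted p = 0.0658), whose groups did not overlap. Mcm3 was called by DESeq2 (adjusted p = 0.0352) and when those 2 groups were fitted by themselves (0.0230), and Rrm2 with at least 10 counts required in every sample (0.0467). In HFpEF-scr, Rrm2 was at -0.45 and Mcm3 at -0.03. There Mcm7 had non-overlapping groups at -0.29 ± 0.09 (adjusted p = 0.0557), with 12.6% of its exon bases shared with other genes. The remaining S-phase members, Mcm2, Mcm6 and Tk1, lay between -0.30 and -0.07 in both comparisons with control and were not called.

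The protein of Mki67 coats mitotic chromosomes and marks cells in cycle. Controls 1 to 5 had 10.1, 16, 13.1, 6.33 and 8.45 CPM, HFpEF-scr had 5.56, 2.63, 5.83 and 3.90 CPM, and HFpEF-FoxO1-sh had 2.66, 1.34, 2.00, 4.15 and 3.20 CPM. Every control lay above every HFpEF library, and the 2 HFpEF groups overlapped. Mki67 fell by 1.26 ± 0.29 on the log2 scale in HFpEF-scr (adjusted p = 0.0172) and by 2.00 ± 0.29 in HFpEF-FoxO1-sh (adjusted p = 0.000355, edgeR), a loss of 75.0%. The difference between the HFpEF groups was -0.74 ± 0.33 (adjusted p = 0.220, 95% interval -63.2% to -2.94%). Leaving out HFpEF-scr 2 (adjusted p = 0.0516) or HFpEF-scr 4 ended the call in HFpEF-scr.

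Top2a, the topoisomerase that untangles replicated chromosomes, had 4.31, 5.27, 5.16, 2.16 and 3.00 CPM in controls, 2.46, 1.18, 1.98 and 1.91 CPM in HFpEF-scr and 1.26, 0.373, 1.45, 1.76 and 0.733 CPM in HFpEF-FoxO1-sh. HFpEF-scr 1 lay above control 4, and no HFpEF-FoxO1-sh library did. In HFpEF-FoxO1-sh it fell by 1.82 ± 0.32 on the log2 scale (adjusted p = 0.00167, edgeR). In HFpEF-scr the difference of -1.08 ± 0.32 missed the threshold in edgeR (adjusted p = 0.0511) and passed it in DESeq2 (adjusted p = 0.0170).

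**Figure D4:**
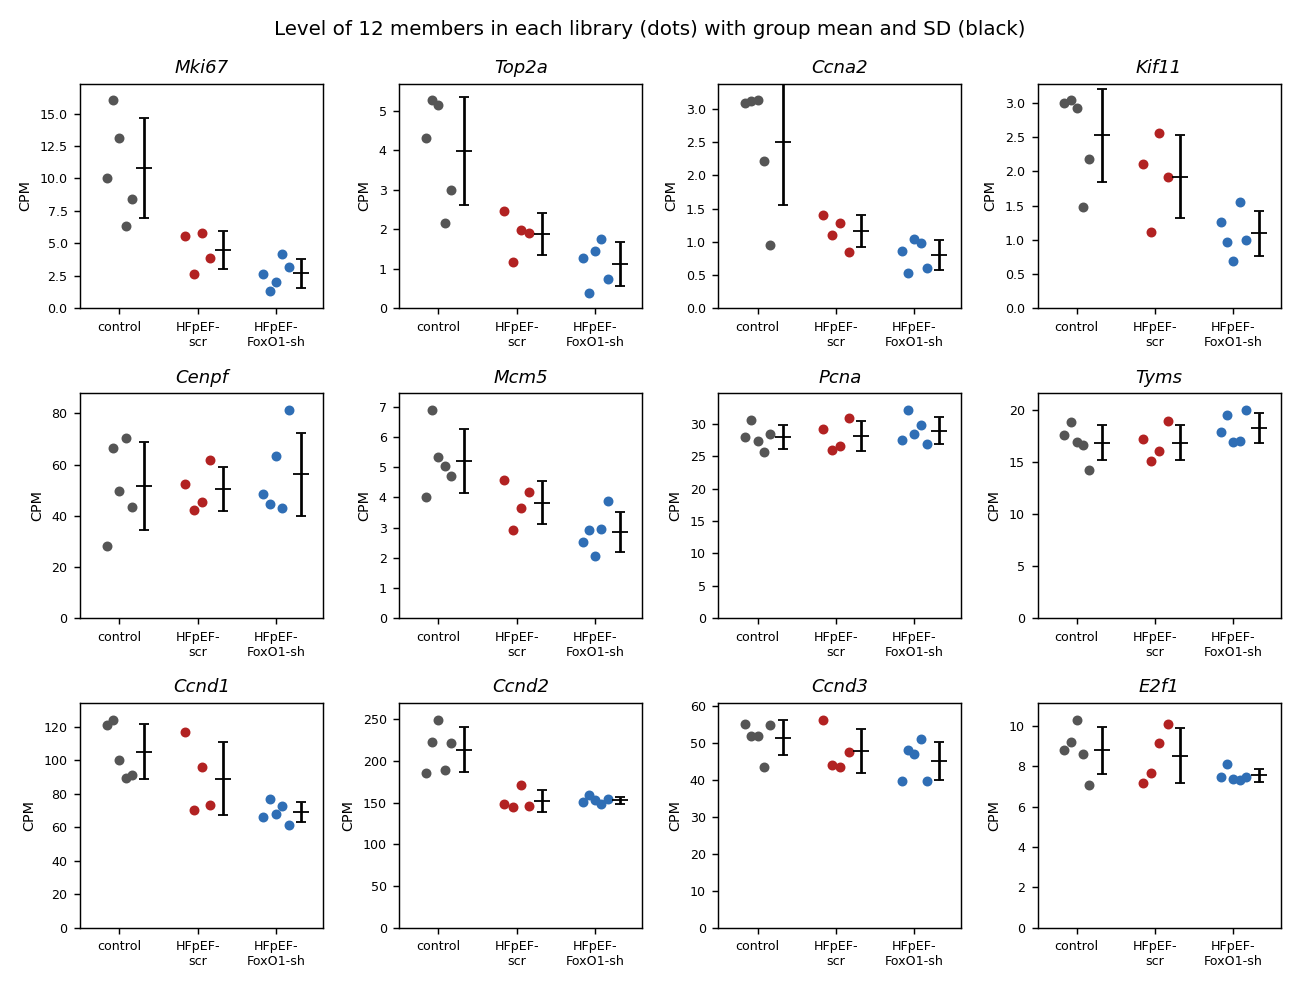
CPM of 12 members in each library (dots), with the group mean and SD in black and every axis from 0. Mki67 is above 6 CPM in every control and below it in every HFpEF library, Ccnd2 separates the controls from both HFpEF groups, and Cenpf, Pcna and Tyms overlap across the 3 groups.

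Of the cyclins and the kinase of mitotic entry, Ccna2 and Cdk1 could be tested. Ccna2, cyclin A2, had 3.09, 3.12, 3.13, 2.22 and 0.954 CPM in controls, 1.41, 1.11, 1.28 and 0.850 CPM in HFpEF-scr and 0.863, 0.523, 1.03, 0.986 and 0.600 CPM in HFpEF-FoxO1-sh. Control 5 lay inside the range of both HFpEF groups, and the other 4 controls were above all HFpEF libraries. On the log2 scale it fell by 1.11 ± 0.30 in HFpEF-scr (adjusted p = 0.0378) and fell by 1.64 ± 0.30 in HFpEF-FoxO1-sh (adjusted p = 0.00218, edgeR). Cdk1, the mitotic kinase, had between 3 and 25 counts per library, with 1.17, 1.56, 1.37, 0.472 and 0.818 CPM in controls against 0.422, 0.277, 0.512 and 0.354 CPM in HFpEF-scr and 0.398, 0.598, 0.552, 0.211 and 0.267 CPM in HFpEF-FoxO1-sh. Control 4 was the only control that overlapped them. Cdk1 fell by 1.44 ± 0.37 (adjusted p = 0.0303) and 1.40 ± 0.35 (adjusted p = 0.0149, edgeR). In HFpEF-scr, the calls of Cdk1, Ccna2 and Anln were lost in limma voom (adjusted p = 0.0547, 0.0903 and 0.0542) and when control and HFpEF-scr were fitted by themselves (0.0581, 0.0792 and 0.0700). The B cyclins, the other partners of Cdk1, were not tested, and their control means were 0.431 ± 0.362 (Ccnb1) and 0.847 ± 0.518 (Ccnb2) CPM.

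Leaving out single libraries changed the weaker mitotic calls in HFpEF-scr. Ccna2 lost its call in 6 of 9 refits (adjusted p up to 0.103, without HFpEF-scr 4), namely without control 1, 2 or 3 or without HFpEF-scr 2, 3 or 4. Anln lost its call in 5 of 9 (up to 0.108, without HFpEF-scr 2), namely without control 1, 2 or 3 or without HFpEF-scr 2 or 4. Cdk1 lost it in 2 of the 5 refits in which it passed the filter, those without HFpEF-scr 2 (0.0838) or HFpEF-scr 4. In HFpEF-FoxO1-sh against control, Prc1 lost its call in 9 of 10 refits (up to 0.108, without control 2), all but that without control 4. Cdk1 failed the filter in 4 of these 10 refits and was called in the other 6, and the remaining 11 called members were called in all 10.

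Among the motors and organisers of the spindle and of cytokinesis, Kif11, which pushes the spindle poles apart, had 3.00, 3.04, 2.94, 1.48 and 2.18 CPM in controls, 2.11, 1.11, 2.56 and 1.91 CPM in HFpEF-scr and 1.26, 0.971, 0.690, 1.55 and 1.00 CPM in HFpEF-FoxO1-sh. Only HFpEF-FoxO1-sh 4 exceeded the lowest control, control 4, while 3 of the 4 HFpEF-scr libraries lay above it. Kif11 fell by 1.21 ± 0.27 on the log2 scale in HFpEF-FoxO1-sh (adjusted p = 0.00737) and differed by -0.39 ± 0.26 in HFpEF-scr (adjusted p = 0.388, edgeR). Kif20a, a kinesin of the central spindle, had 1.33, 1.42, 1.45, 1.34 and 1.73 CPM in HFpEF-FoxO1-sh, all below both the controls (1.75 to 3.41 CPM) and HFpEF-scr (1.94 to 2.39 CPM). It fell by 0.92 ± 0.18 against control (adjusted p = 0.00341, edgeR), and its difference from HFpEF-scr was -0.60 ± 0.19 (adjusted p = 0.0898). Kif20a shares 29.3% of its exon bases with a neighbouring gene. Tpx2, which nucleates spindle microtubules, fell by 1.48 ± 0.29 (adjusted p = 0.00348, edgeR) in HFpEF-FoxO1-sh against control, and its difference from HFpEF-scr was -0.79 ± 0.33 (adjusted p = 0.182). Anln, a scaffold of the cleavage furrow, fell in HFpEF-scr by 0.96 ± 0.27 (adjusted p = 0.0398) and missed the threshold in HFpEF-FoxO1-sh at -0.75 ± 0.24 (adjusted p = 0.0523, edgeR), which it passed in DESeq2 (0.0348) and with at least 10 counts required in every sample (0.0425). Prc1, which bundles the central spindle, fell in HFpEF-FoxO1-sh by 0.80 ± 0.24 (adjusted p = 0.0404, edgeR), a call lost in limma voom (0.0747). Prc1 shares 11.1% of its exon bases with a neighbouring gene. Of all members, 7 share over 10%, among them Ccna2 (12.5%), Ccne2 (17.4%) and Ube2c (22.8%). Kif23 stood at -0.69 and -0.99 and Nusap1 at -0.55 and -0.55 against control, neither called by edgeR. In HFpEF-FoxO1-sh, Kif23 was called by DESeq2 (adjusted p = 0.0333) and limma voom (adjusted p = 0.0471).

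At the kinetochore and in the spindle checkpoint, Bub1b, which delays anaphase, had 1.87, 2.37, 1.37, 1.95 and 1.84 CPM in controls, 1.13, 0.485, 1.28 and 1.06 CPM in HFpEF-scr and 0.398, 0.971, 0.690, 1.13 and 0.667 CPM in HFpEF-FoxO1-sh. No HFpEF library reached the lowest control. Bub1b fell by 1.29 ± 0.27 in HFpEF-FoxO1-sh (adjusted p = 0.00588, edgeR), and its difference of -0.91 ± 0.28 in HFpEF-scr missed the threshold (adjusted p = 0.0566). Cenpe, the kinetochore motor, fell by 1.66 ± 0.36 in HFpEF-FoxO1-sh (adjusted p = 0.00617) and stood at -1.18 ± 0.36 in HFpEF-scr (adjusted p = 0.0556, edgeR). DESeq2 called both Bub1b (adjusted p = 0.0383) and Cenpe (0.0343) in HFpEF-scr. The kinases Aurka (-0.67 and -0.82), Aurkb (-0.66 and -1.45) and Plk1 (-0.53 and -0.57), the anaphase factors Cdc20 (-0.65 and -0.85) and Ube2c (-0.25 and -0.52), and the passenger protein gene Birc5 (-0.46 and -0.40) had log2 differences below 0 in both comparisons with control, none of them called by edgeR.

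Cenpf, a large kinetochore protein, stood apart from the other mitotic members. Its level was 28.0, 66.4, 49.9, 70.3 and 43.4 CPM in controls, 52.6, 42.4, 45.4 and 61.7 CPM in HFpEF-scr and 48.7, 44.5, 63.4, 43.2 and 81.3 CPM in HFpEF-FoxO1-sh. The groups overlapped widely, and both the lowest and the next to highest library were controls. Its log2 differences from control were -0.02 ± 0.23 (95% interval -30.1% to 38.3%) and 0.13 ± 0.22 (-20.4% to 50.9%, edgeR). Control 1, with the lowest Cenpf, was the third highest library for the other 23 mitotic genes together, and control 4, with the highest Cenpf among controls, was the lowest of the 5 controls. The expected counts of Cenpf were fractional in all 14 libraries, as RSEM writes when it divides reads that fit more than 1 sequence, and 15 members had a fractional count in at least 1 library. Its promoter stretch above holds the NF-Y box, and no CHR or E2F letters are marked in it. That does not set it apart, since 9 of 21 mitotic windows held a CHR and 3 of 21 E2F letters. The window of Cenpe, which was called lower, held neither.

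Other genes of these pathways were read from lists of their own. Of 60 further mitotic genes, 36 could be tested, and 5 were lower and 0 higher in HFpEF-scr than in control, where 3.70% of all genes were lower. Iqgap3, a scaffold of dividing cells, fell by 1.60 ± 0.33 (adjusted p = 0.00959), Incenp, of the chromosomal passenger complex, by 0.59 ± 0.13 (adjusted p = 0.0157), Spag5, a spindle protein, by 1.5 ± 0.39 (adjusted p = 0.0306) and Spc24, of the kinetochore, by 0.57 ± 0.15 (adjusted p = 0.0321, edgeR). Iqgap3 kept its call whichever library was left out, while Incenp lost it without HFpEF-scr 4 (0.0514). Spag5 passed the filter in 5 of 9 refits and lost its call in 3 of them, without HFpEF-scr 1, 2 or 4 (up to 0.0778). Spc24 lost its call in 6 of 9 refits (up to 0.0951), all but those without control 4, HFpEF-scr 2 or HFpEF-scr 3. Both Spag5 (0.0700) and Spc24 (0.0689) lost it when control and HFpEF-scr were fitted by themselves. The count of 5 was 1 without HFpEF-scr 4, 2 without control 2 or control 3, and 3 without control 1, HFpEF-scr 1 or HFpEF-scr 2. In HFpEF-FoxO1-sh against control 12 of the 36 were lower and 0 higher (6.28% of all genes lower), and 5 were lower without control 2. There Ect2, which starts cytokinesis, fell by 2.1 ± 0.31 (adjusted p = 0.000446), Kif22, a chromosome-bound kinesin, by 2.24 ± 0.51 (adjusted p = 0.00879), Iqgap3 by 1.74 ± 0.31 and Spag5 by 1.66 ± 0.37. Spag5 and Kif22 passed the count filter through 4 controls and no HFpEF library, and failed it in 4 of the 10 refits. Iqgap3 and Ect2 had at most 1 library at the filter level in each HFpEF group. The tests of these 4 genes, and the counts of 5 and 12 that hold them, are therefore not independent of the level in controls. Without a filter 58 of the 60 lay below 0 in each of these comparisons (48.1% and 50.0% of all genes), with medians of -0.67 and -0.94. Between the HFpEF groups 0 of 36 were called, with 3 at an unadjusted p under 0.05 (19.7% of all genes), and DESeq2 called 1.

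A further 50 replication genes, 46 of them tested, gave 1 lower and 0 higher gene in HFpEF-scr against control, Pole, the leading-strand polymerase, which fell by 0.58 ± 0.14 (adjusted p = 0.0195, edgeR). The call was lost without control 3, without HFpEF-scr 4 (adjusted p = 0.0564) and with the 2 groups fitted by themselves (0.0524). That count is no larger a share than the 3.70% of all genes called lower. In HFpEF-FoxO1-sh against control 3 were lower and 2 higher, a share below the 13.0% of all genes called, with medians over the list of -0.08 and -0.11 in the comparisons with control. Clspn, a replication checkpoint adaptor, fell by 1.55 ± 0.36 (adjusted p = 0.00935, edgeR) and, like Cdk1, passed the filter through 4 controls and no HFpEF library. It failed the filter in 4 of 10 refits. Uhrf1 (-1.0 ± 0.28), Orc2 (0.23 ± 0.07) and Dut (0.24 ± 0.07) were called with adjusted p of 0.0269, 0.0396 and 0.0405 in edgeR, and Orc2 was not called without a filter (0.0598) or in DESeq2 (0.0506). Without control 2, 0 genes of the list were called. Uhrf1 kept its call without control 3, 4 or 5 or HFpEF-FoxO1-sh 3, Orc2 without control 1 or 5, and Dut without control 3 or 4 or HFpEF-FoxO1-sh 5, and each lost it in the other refits (up to 0.0737, 0.101 and 0.112).

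Of 30 inhibitors, retinoblastoma-family and checkpoint genes, 28 were tested. By edgeR, 2 were lower and 1 higher in HFpEF-scr against control, 1 lower and 2 higher in HFpEF-FoxO1-sh against control, and 1 lower and 0 higher between the HFpEF groups. Of all genes tested, 7.37%, 13.0% and 3.58% were called in these comparisons, and the counts of the list lie near those shares. Cdkn1a encodes the Cdk inhibitor p21. It had 15.6, 10.2, 5.61, 6.60 and 16.2 CPM in controls, 30.8, 56.2, 9.67 and 18.4 CPM in HFpEF-scr and 4.98, 7.62, 8.00, 5.07 and 9.40 CPM in HFpEF-FoxO1-sh. HFpEF-scr 3 lay within the control range, and all HFpEF-scr libraries were above all HFpEF-FoxO1-sh libraries. Cdkn1a was 1.39 ± 0.40 higher on the log2 scale in HFpEF-scr than in control (adjusted p = 0.0450), and it fell by 2.03 ± 0.42 in HFpEF-FoxO1-sh against HFpEF-scr (adjusted p = 0.0171, edgeR). The first of these calls was lost without control 2, 3 or 4, HFpEF-scr 1 or HFpEF-scr 2 (log2 difference 0.84 and adjusted p = 0.189 without HFpEF-scr 2), and the other without HFpEF-FoxO1-sh 1 (0.0528), and both were lost in limma voom (0.111 and 0.0640). The call of Cdkn1a in HFpEF-scr was also lost when control and HFpEF-scr were fitted by themselves. Trp53, which encodes p53, fell by 0.37 ± 0.09 (adjusted p = 0.0269) and 0.48 ± 0.09 (adjusted p = 0.00218) against control, the first of these lost without control 2 or 3 or HFpEF-scr 2 or 4 (up to 0.0817) and with the 2 groups fitted by themselves (0.0656). Chek1, a checkpoint kinase, fell by 1.07 ± 0.31 in HFpEF-scr (adjusted p = 0.0458), a call lost in 7 of 9 refits, all but those without control 2 or control 4 (up to 0.126). It was also lost with no filter (0.0644), in limma voom (0.0683) and with the 2 groups fitted by themselves (0.0900), and no HFpEF-scr library reached the filter level for Chek1. Wee1, the kinase that restrains Cdk1, rose by 0.97 ± 0.18 in HFpEF-FoxO1-sh against control (adjusted p = 0.00216, edgeR), and Lin9, a MuvB subunit, rose by 0.48 ± 0.13 (adjusted p = 0.0222), a call lost without control 5 or HFpEF-FoxO1-sh 3 or 5 (up to 0.0587). The inhibitor Cdkn1b was not called by edgeR in any comparison. Cdkn1c was not either, but DESeq2 called it in HFpEF-FoxO1-sh against HFpEF-scr (adjusted p = 0.0373) and against control (adjusted p = 0.0389).

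Of 25 kinases and factors that drive the cycle, 23 were tested. By edgeR, 0 were lower and 1 higher in HFpEF-scr against control, and 1 lower and 1 higher in HFpEF-FoxO1-sh against control. Between the HFpEF groups 1 was lower and 0 higher. The shares of all genes called were 7.37%, 13.0% and 3.58%, and the counts of this list lie near or below them. Relative to control, Myc rose by 1.06 ± 0.24 in HFpEF-scr (adjusted p = 0.0160) and fell by 1.03 ± 0.24 in HFpEF-FoxO1-sh against HFpEF-scr (adjusted p = 0.0309, edgeR). The rise missed the threshold when HFpEF-scr 2 was left out (0.0573), and the fall did in 6 of 9 refits, all but those without HFpEF-scr 3 or 4 or HFpEF-FoxO1-sh 5 (up to 0.0835). Mycn fell by 1.03 ± 0.26 (adjusted p = 0.0165) and Tfdp2, a partner of E2F factors, rose by 0.43 ± 0.12 (adjusted p = 0.0281, edgeR) in HFpEF-FoxO1-sh against control. The call of Tfdp2 was lost without control 2, 3 or 4 or HFpEF-FoxO1-sh 3 or 5 (up to 0.0753). The D-cyclin partners Cdk4 (39.1 ± 1.84, 36.2 ± 2.63 and 35.6 ± 1.95 CPM) and Cdk6 (4.47 ± 1.07, 6.25 ± 1.16 and 5.37 ± 1.55 CPM) were not called by edgeR in any of the 3 comparisons.

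The hairpin's target was examined in the same libraries. Foxo1 had 44.2, 42.2, 42.4, 47.0 and 44.4 CPM in controls, 44.8, 48.3, 41 and 40.1 CPM in HFpEF-scr and 41.5, 46.0, 39.3, 43.8 and 41.4 CPM in HFpEF-FoxO1-sh. The 3 groups overlapped, and the difference between the HFpEF groups was -0.04 ± 0.06 on the log2 scale (adjusted p = 0.780, edgeR). The table therefore does not show a lower Foxo1 message in the libraries labelled HFpEF-FoxO1-sh, and each direction given for them rests on the label.

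Cell-type markers moved with some of these results. Cardiomyocyte markers summed to 100200 to 108300 CPM in controls, 88400 to 99260 in HFpEF-scr and 93250 to 104000 in HFpEF-FoxO1-sh. Every HFpEF-scr library was thus below every control. Of 9 tested macrophage markers, 8 were lower and 0 higher in HFpEF-FoxO1-sh than in control, where 6.28% of all genes were lower. In HFpEF-scr against control 0 were called, and 2 were lower in HFpEF-FoxO1-sh than in HFpEF-scr (0 without HFpEF-scr 1, and 1 without HFpEF-FoxO1-sh 4). Their summed level was 228 to 308 CPM in controls, 209.8 to 265 in HFpEF-scr and 158 to 200 in HFpEF-FoxO1-sh, so it was lowest in the group in which most mitotic members were called, and its part in those results was not tested. Lymphocyte markers summed to 2.67 to 6.72 CPM over all libraries. In HFpEF-scr against control, 2 of 8 tested fibroblast and 3 of 8 pericyte or smooth muscle markers were higher. So were 2 of 10 endothelial and 1 of 4 tested Schwann cell markers, while 3 of 8 cardiomyocyte markers were lower. Of all genes tested, 3.66% were called higher and 3.70% lower in that comparison. In HFpEF-FoxO1-sh against control, 2 of 8 tested fibroblast markers (Col1a1 and Col1a2) were lower. The fibroblast list as a whole was not, with a median log2 difference of 0.08. Its summed mean was 1958 CPM, against 1839 CPM in controls. Also lower were 1 of 10 endothelial, 1 of 8 cardiomyocyte and 1 of 2 tested atrial markers (Nppa). There 1 of 10 endothelial and 1 of 4 Schwann cell markers were higher, where 6.28% of all genes were called lower and 6.68% higher. Against HFpEF-scr, the same 2 fibroblast markers and 1 endothelial marker were lower in HFpEF-FoxO1-sh, where 2.26% of all genes were called lower. The summed red cell markers ran from 315 to 3411 CPM in HFpEF-scr and from 435 to 1001 CPM in the other groups. The part of these cells in the differences of the members was not tested.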

How the data were processed

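The data are RNA-seq of 14 left ventricle libraries, made from poly(A) RNA with a Swift Biosciences kit, per the labels' protocols. The authors deposited 1 table of expected counts per gene; Bowtie2 2.1.0, RSEM 1.2.15 and build mm10 are named in the submitters' processing notes. The annotation, and whether counting used strand, are not given in the sources used here, so reads of overlapping genes on opposite strands cannot be told apart.

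Expected counts were rounded and fitted with edgeR 4.0.16 in R 4.3.3 (quasi-likelihood, all 14 libraries, 1 coefficient per group, TMM), after filterByExpr had kept 13588 of 24054 genes, with p-values adjusted by Benjamini-Hochberg over those genes. Standard errors and 95% intervals come from the same fit. Zero floors and intervals cover counting error or the spread between samples only. CPM uses TMM-scaled library sizes. Alternatives used DESeq2 1.42.0, limma 3.58.1 (voom), no filter, a stricter filter, 2 groups alone, a replicate block and each library left out. The fit was tested on simulated data. Promoter windows come from RefSeq (GRCm38.p6), and exon lengths and overlaps from GENCODE on the same build.

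The members and the lists were chosen with earlier results of these data known. All 41 members are named. From each related list up to 4 called genes per comparison are named, by smallest p, with Cdkn1a, Cdkn1b, Cdkn1c, Cdk4, Cdk6 and Foxo1 always examined. The alternatives for the related lists and for named genes outside the 41 were added after seeing the data.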

Additional observations from a re-analysis of the deposited data

Results flagged for a closer look

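Among 138 groups of values examined (41 members and the class sums in 3 library groups), 8 held a library set apart from the rest of its group by Dixon's criterion at the 95% level, where chance flags about 1 in 20 groups. Of these, 3 came from control 2: Mcm3 at 9.65 CPM against 6.13 to 7.02 in the other controls, Mcm6 at 14.2 against 8.93 to 10.1, and Nusap1 at 2.52 against 1.21 to 1.43. In HFpEF-scr 3, Ccnd2 was at 172 CPM against 144 to 148, and Bub1 at 0.384 against 0.0693 to 0.0709, which is 6 counts against 1 in each of the other 3 libraries. In HFpEF-FoxO1-sh 2, E2f1 was at 8.14 CPM against 7.32 to 7.5, and Ccne1, Ccne2 and E2f1 together at 12.9 against 10.9 to 11.4. The mitotic members without Cenpf summed to 27.9 CPM in HFpEF-FoxO1-sh 4 against 18.5 to 20.6 in the other 4 libraries of that group.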

How the results depend on the processing

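No called direction reversed under any alternative run. The count of members called in HFpEF-scr against control, 5, was 3 with at least 10 counts in every sample, 2 in limma voom, 2 with the 2 groups alone, and 1 to 8 without a library; against control, HFpEF-FoxO1-sh gave 11 to 17 members, and against HFpEF-scr 0 to 0. All genes called were 504 with the 2 groups alone (HFpEF-scr against control), and 876 in DESeq2 and 291 with the replicate block (HFpEF-FoxO1-sh against HFpEF-scr), with 537 to 1106, 162 to 668 and 1228 to 1683 without a library. Replicate numbers of the titles did not pair the samples: same-numbered deviations correlated from -0.19 to 0.11, 1 of 13 pairs exceeded 0.1, and 2 of 14 samples correlated best with their own number. The sample descriptions skip 1 number within HFpEF-scr, and a pairing by that numbering was not tested. With the replicate block, 4, 0 and 13 members were called. The block ended the calls of Anln (0.0756) and Chek1 (0.0892) in HFpEF-scr and of Prc1 (0.0922), Uhrf1 (0.0502), Orc2 (0.0688) and Dut (0.0566) in HFpEF-FoxO1-sh against control, where Rrm2 (0.0312) and Cdkn1c (0.0401) passed (adjusted p, edgeR). Without the highest member of each class, the log2 ratio of sums was -0.19 for the D cyclins (HFpEF-scr against control) and -0.84, -0.38 and -1.22 for mitosis. Depth limits the mitotic genes: 4 of 24 were not tested, and 0 to 13 members had under 10 counts in a library.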
